A study of Mus musculus with 12 samples.

Results

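The zinc-handling genes Mt1, Mt2, Mtf1, Slc30a1, Slc30a10 and Slc39a14 were followed through the livers of 12 mice. They were picked by symbol from a table of 48795 genes, each symbol matched 1 row, and 6 of 6 were among the 13812 genes with enough counts to be tested. The mice were females, 4 months old, on normal chow, and were littermates matched for sex and age. A whole-body deletion of Nts, which encodes the gut and brain peptide neurotensin, was compared with wild-type mice, and either genotype was killed fed ad libitum or after a fast of 22 h. This gave 4 groups of 3 mice, written here as the deposited labels give them: NTS WT fed (mice 254, 257 and 323), NTS WT fasted (265, 282 and 322), NTS KO fed (277, 303 and 319) and NTS KO fasted (284, 290 and 295). The labels put all 12 in 1 batch.

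Metallothioneins are small cysteine-rich proteins that hold zinc and copper in the cytosol, and in the liver Mt1 and Mt2 are the forms in use. MTF1 is a zinc-sensing transcription factor that binds metal response elements in the promoters of Mt1, Mt2 and Slc30a1. Both metallothioneins are also known to respond to glucocorticoids and to inflammatory cytokines. Proteins of the Slc30 family move zinc out of the cytosol and those of the Slc39 family move it in, while Slc30a10 and Slc39a14 are best known in the liver as carriers of manganese.

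The libraries held 21999647 to 45273069 counts, and each of the 6 genes had at least 44 counts in each mouse. Levels are given as TMM-normalized CPM, which are counts scaled to the library's total and then by the TMM method, with mean ± SD of 3 mice, and differences as log2 fold changes from edgeR with Benjamini-Hochberg adjusted p over all 13812 genes. The genotype labels have a limit: counts on Nts were 0 in the 6 libraries labelled NTS WT, against 46, 40 and 15 in the fed and 12, 4 and 18 in the fasted libraries labelled NTS KO, so genotype directions below are those of the labels. The 7 hepatocyte markers summed to 113700 to 148300 TMM-normalized CPM, and 3 of the 7 were higher and 2 lower in fasted livers of either genotype. Summed markers were 33.4 to 49.7 in fed and 13.7 to 29.6 in fasted livers for cholangiocytes (1 of 4 tested genes called lower in either genotype), 123 to 178.5 and 103 to 124 for sinusoidal endothelium (1 of 5 lower in either, 1 higher in NTS WT), and 232 to 313 and 216 to 245 for stellate cells (2 of 6 lower in NTS WT and 5 of 6 in NTS KO). Kupffer cell markers summed to 408 to 483 in NTS WT fed and 201 to 349 in NTS WT fasted livers, with 1 of 6 lower, and in NTS KO livers 0 of 6 were called. The 5 pancreatic markers summed to 7.66 to 13.7 in fed and 3.06 to 5.64 in fasted livers, with the 1 tested gene lower in both genotypes and Cpa1 and Pnlip at 0. Lymphocyte markers summed to 15.8 to 16.9 in NTS WT fed and 10.4 to 11.25 in NTS WT fasted livers. In NTS KO livers they summed to 13.5 to 15.55 fed and 10.8 to 22.1 fasted, and 0 of 5 were called in either genotype. Of 3 tested erythroid markers 1 was lower in NTS KO livers. Of all genes 8.91% were higher and 9.19% lower in NTS WT and 7.7% and 9.14% in NTS KO livers. Beside these shares, nothing is read from 1 called gene of a list. In whole liver, fewer cells of a type and less RNA per cell cannot be told apart, and the part of cell makeup in the results below was not tested.

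Mt1 (ENSMUSG00000031765) lies on chromosome 8 from 94179082 to 94180327 in GRCm38, and Mt2 (ENSMUSG00000031762) lies 5513 bases from it, from 94172664 to 94173568. Slc30a1 (ENSMUSG00000037434) and Slc30a10 (ENSMUSG00000026614) share chromosome 1, from 191906767 to 191913247 and from 185454848 to 185468762. Mtf1 (ENSMUSG00000028890) is on chromosome 4 from 124802104 to 124849800, and Slc39a14 (ENSMUSG00000022094) on chromosome 14 from 70303469 to 70351425. RefSeq promoters on GRCm38.p6 were at hand for 5 of the 6, Slc39a14 having no entry. They were searched on both strands for the core of the metal response element, written TGCACNC or TGCGCNC. The window ran from 250 bases before the start of transcription annotated by RefSeq to 30 bases from it on. The plus-strand sequences of the metallothioneins and of Slc30a1, the classic MTF1 targets among the 6, are shown with every match in capitals, at chr8:94178839-94179118, chr8:94172368-94172647 and chr1:191906531-191906810.

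Mt1: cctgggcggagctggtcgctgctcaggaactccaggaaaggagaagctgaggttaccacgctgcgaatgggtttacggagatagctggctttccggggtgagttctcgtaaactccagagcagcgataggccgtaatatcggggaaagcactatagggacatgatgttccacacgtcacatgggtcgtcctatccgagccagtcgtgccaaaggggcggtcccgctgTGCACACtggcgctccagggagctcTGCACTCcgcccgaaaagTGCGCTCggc
Mt2: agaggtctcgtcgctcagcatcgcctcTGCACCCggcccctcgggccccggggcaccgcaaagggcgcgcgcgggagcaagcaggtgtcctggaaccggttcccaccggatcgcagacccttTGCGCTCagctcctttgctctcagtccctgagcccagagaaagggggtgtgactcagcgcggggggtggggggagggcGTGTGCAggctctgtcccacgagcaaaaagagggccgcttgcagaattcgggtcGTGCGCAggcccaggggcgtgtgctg
Slc30a1: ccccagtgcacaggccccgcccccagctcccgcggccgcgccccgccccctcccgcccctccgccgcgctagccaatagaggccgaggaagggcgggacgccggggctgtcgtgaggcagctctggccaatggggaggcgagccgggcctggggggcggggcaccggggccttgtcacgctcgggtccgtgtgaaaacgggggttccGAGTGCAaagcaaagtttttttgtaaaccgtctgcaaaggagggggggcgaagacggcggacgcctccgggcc

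The Mt1 window held 3 matches, all on the plus strand, with first bases at -23, 3 and 21 from the RefSeq start. Whether transcription in these livers began at the RefSeq starts was not tested, and sequence beyond the windows was not searched. In Mt2 there were 4, of which 2 were on the plus strand (-223 and -128) and 2 on the minus strand (-50 and 5). Slc30a1 had 1, on the minus strand at -43. Slc30a10 had 3, of which 2 overlapped on opposite strands at -233 and -232, and Mtf1 had 0. Among all 32851 RefSeq promoters of this length, 24.1% held at least 1 match, 1.73% at least 3 and 0.405% at least 4. The window was chosen after the data were seen. The Mt1 matches at 3 and 21 and the Mt2 match at 5 lie in its stretch from the start on. These shares are therefore no test of the promoters. A match to these letters is a description of the sequence and not a bound site.

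Mt1 was the most abundant of the 6 per length of transcript. Its mean over 12 mice was 294.3 TMM-normalized CPM per kb, against 71.5 for Mt2, 21.5 for Slc39a14, 9.32 for Slc30a10, 6.00 for Slc30a1 and 1.92 for the transcription factor Mtf1. These means pool fed and fasted mice. Per kb, single mice ran from 21.7 to 969 for Mt1, from 2.16 to 197 for Mt2 and from 18.7 to 27.4 for Slc39a14. The place of Mt2 above the transporters therefore did not hold in every mouse. The remaining metallothioneins of the table, Mt3 and Mt4, which neighbour Mt2 on chromosome 8, were at 0 counts in all 12 mice. Counts of Mt1 were whole numbers in 12 of 12 mice and those of Mt2 lay within 0.05 of whole numbers, so the counting gave no fraction of a read to Mt1 and next to none to Mt2.

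The level of Mt1 varied strongly from mouse to mouse. In NTS WT fed livers it was 43.1, 16.6 and 85.7 TMM-normalized CPM in mice 254, 257 and 323, a mean of 48.4 ± 34.9. In NTS WT fasted livers it was 334, 738 and 88.2 in mice 265, 282 and 322, a mean of 387 ± 328. Fasted mouse 322 thus stood just above the highest fed mouse, and the groups did not overlap. The same was true of 36% of all genes tested. In NTS KO fed livers Mt1 was 68.5, 208 and 47.1 in mice 277, 303 and 319, a mean of 108 ± 87.2. In NTS KO fasted livers it was 617, 246 and 199.5 in mice 284, 290 and 295, a mean of 354 ± 229. Fed mouse 303 was above fasted mouse 295, so these groups overlapped.

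**Figure D1:**
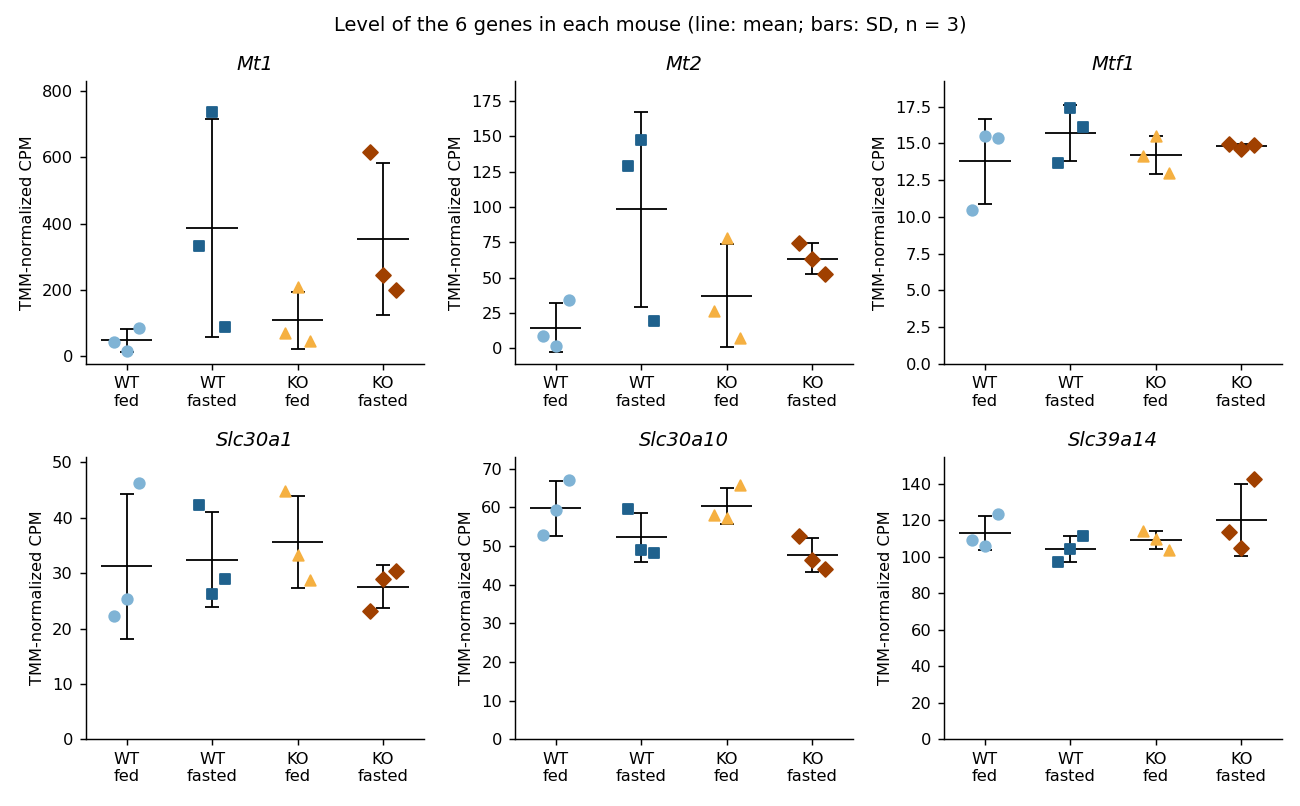
Level of each of the 6 genes in TMM-normalized CPM (y axis, linear) in each mouse of the 4 groups (x axis), with 1 point per mouse, a line at the mean and bars of 1 SD of 3 mice. Mt1 and Mt2 spread widely within groups, with Mt1 from 88.2 to 738 in NTS WT fasted livers, whereas Slc39a14 stayed between 97.0 and 142.5 in all 12 mice.

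Mt1 was 3.00 higher on the log2 scale in fasted than in fed NTS WT livers (SE 0.99, 95% CI 0.73 to 5.27), and the adjusted p of 0.0713 missed the threshold. In NTS KO livers the difference was 1.72 (SE 0.95, CI -0.44 to 3.87, adjusted p = 0.258). With edgeR 0 of the 6 genes passed an adjusted p of 0.05 in NTS WT livers, where 18.1% of all genes did, and 1, Mt1, had an unadjusted p under 0.05 (0.0155), as had 32.5% of all genes. DESeq2 called Mt1 in NTS WT livers (log2 fold change 3.00, adjusted p = 0.0068), and so did edgeR without mouse 322 (3.47, adjusted p = 0.0441). With any other mouse left out edgeR did not call it, and the log2 fold change of Mt1 ran from 2.12 without mouse 282 (adjusted p = 0.224) to 3.70 without mouse 323 (adjusted p = 0.0719). In NTS KO livers it ran from 1.05 without mouse 284 to 2.62 without mouse 303. With edgeR 0 of 6 passed in NTS KO livers, where 16.8% of all genes did, DESeq2 called 0 there, and the 1 gene with an unadjusted p under 0.05 was Slc30a10, where 31.7% of all genes had one. The fasting differences of Mt1 did not differ detectably between genotypes (-1.28, SE 1.31, CI -4.27 to 1.70, adjusted p = 0.921), and the interval is wide.

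As both genotypes gave a positive difference for Mt1, the mean of the fasting contrasts over the genotypes was also tested, a choice made after these values were seen. By this contrast Mt1 rose 2.36 on the log2 scale, which is 5.12-fold (SE 0.68, CI 0.80 to 3.92, adjusted p = 0.0288). It was 1 of 2 of the 6 genes called, where 32.8% of all genes were. The call rested on few mice, since it was lost without any 1 of mice 254, 257, 282, 277, 319 or 284, with adjusted p from 0.0562 to 0.0706 and log2 fold changes from 1.92 to 2.32.

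Mt2, the second hepatic metallothionein, had the widest range of the 6, 91.0-fold from the lowest to the highest mouse against 44.6-fold for Mt1. In NTS WT fed livers Mt2 was 8.64, 1.62 and 34.1 TMM-normalized CPM in mice 254, 257 and 323 (14.8 ± 17.1). In NTS WT fasted livers it was 129, 147 and 19.5 in mice 265, 282 and 322 (98.4 ± 69.0). Fasted mouse 322 lay below fed mouse 323, so the groups overlapped. In NTS KO fed livers Mt2 was 26.5, 78.2 and 7.53 in mice 277, 303 and 319 (37.4 ± 36.6). In NTS KO fasted livers it was 74.4, 63.5 and 52.4 in mice 284, 290 and 295 (63.4 ± 11.0). Here the 3 fasted mice lay close together, all below fed mouse 303. The log2 difference between fasted and fed livers was 2.74 in NTS WT (SE 1.21, CI -0.03 to 5.52, adjusted p = 0.158) and 0.76 in NTS KO (adjusted p = 0.700). With a mouse left out it ran from 2.21 (without 257) to 4.26 (without 323) in NTS WT and from 0.28 (without 319) to 1.90 (without 303) in NTS KO livers, with adjusted p of at least 0.0738. The averaged contrast gave 1.75 (adjusted p = 0.143), and the difference between genotypes was -1.98 (SE 1.62, adjusted p = 0.901).

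Group means of both metallothioneins had the same order, lowest to highest, from NTS WT fed through NTS KO fed and NTS KO fasted to NTS WT fasted. No step in this order passed the test. For Mt1 the adjusted p of the steps was 0.847, 0.258 and 0.996, and for Mt2 it was 0.848, 0.700 and 0.967.

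By Pearson r the 2 metallothioneins moved together across the fed mice, and the relation did not pass after adjustment in fasted mice. By Spearman rho it passed after adjustment in neither state. The relations in fed and fasted mice were not tested against each other. Mouse 282 was highest and mouse 257 lowest of 12 for either gene. Within the 6 fed mice the log2 levels of Mt1 and Mt2 had a Pearson r of 0.978 (exact permutation p = 0.00417, 0.0417 after adjustment over 10 relations) and a Spearman rho of 0.943 (exact permutation p = 0.0167, adjusted 0.0835). Without the 2 fed mice farthest from the median of Mt1, r was 0.971 over 4 mice (exact permutation p = 0.125, where 4 mice allow no p below 0.0417). Within the 6 fasted mice r was 0.873 (exact permutation p = 0.0208, adjusted 0.104) and rho 0.943 (exact permutation p = 0.0167, adjusted 0.0835). In fasted mice the relation rested on its extremes, as r was 0.405 without the 2 farthest mice. Fed and fasted mice include both genotype labels, and groups of 3 were too small to give r within a group. Mt1 with Mtf1, Slc30a1, Slc30a10 or Slc39a14 gave adjusted Pearson p of at least 0.742 in either feeding state.

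**Figure D2:**
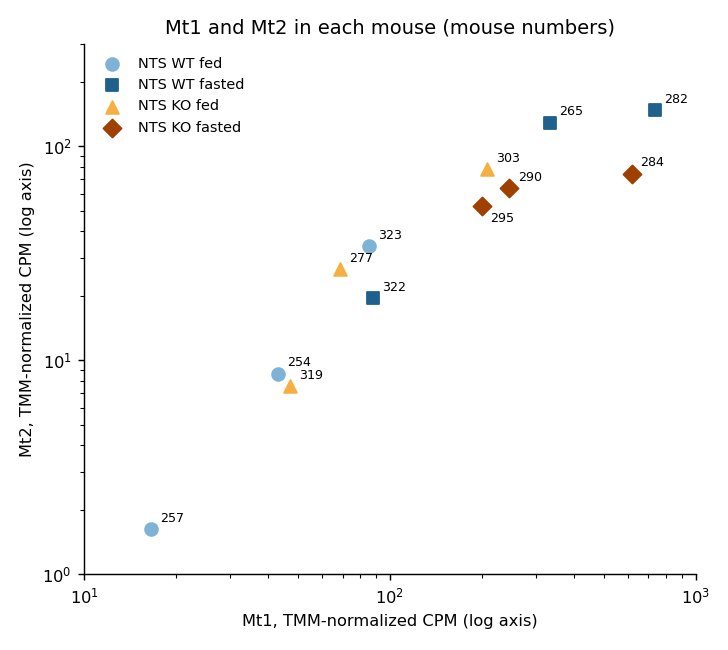
Mt2 against Mt1 in the 12 livers, both in TMM-normalized CPM on log axes, with 1 point per mouse, its number beside it and its group by color and shape. The points lie along a rising line from mouse 257 (16.6 and 1.62) to mouse 282 (738 and 147), and fasted mouse 322 sits among the fed mice.

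The balance between the metallothioneins differed between mice. The ratio of Mt1 to Mt2 counts ran from 2.51 in mouse 323 to 10.2 in mouse 257, both NTS WT fed. Mouse 284 had a ratio of 8.30, and apart from these the highest was 6.25, in mouse 319. The high ratio of mouse 257 rests on 44 counts of Mt2 against 450 of Mt1.

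The spread of the metallothioneins between mice of a group was large beside that of other liver genes. The SD of log2 CPM between mice of 1 group was 1.20 for Mt1 and 1.60 for Mt2, against a median of 0.237 over all genes tested. This placed Mt2 75th and Mt1 192nd from the most variable of 13812 genes. Slc30a1 was intermediate at 0.39, and Mtf1 (0.20), Slc30a10 (0.15) and Slc39a14 (0.14) were below the median. The spread of Mt2 ranged from 2.17 in NTS WT fed to 0.25 in NTS KO fasted livers. These ranks are a description and were not tested.

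**Figure D3:**
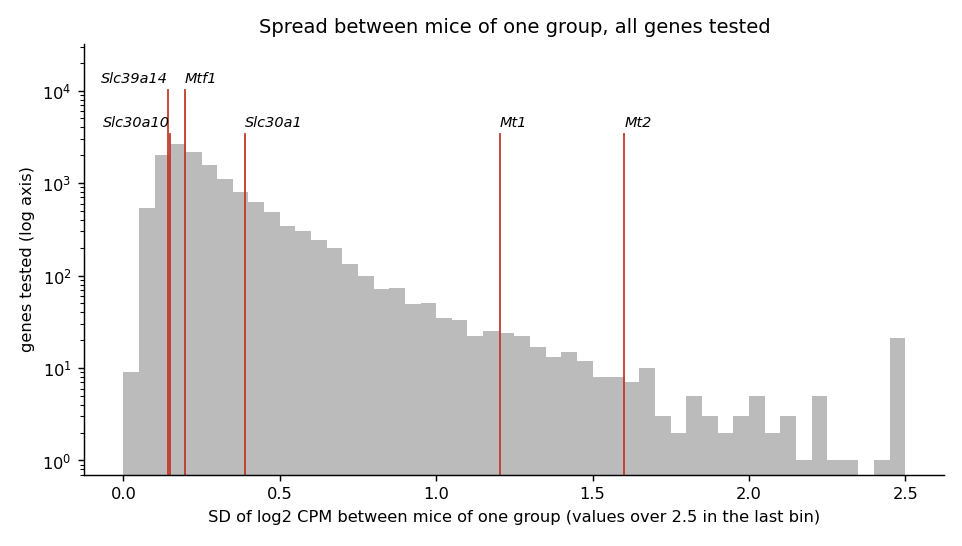
Number of genes (y axis, log scale) by SD of log2 CPM between mice of 1 group (x axis) for the 13812 genes tested, with the 6 genes marked by vertical lines. Mt1 and Mt2 stand at 1.20 and 1.60, far out in the upper tail, and Slc39a14, Slc30a10 and Mtf1 lie below the median of 0.237.

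Levels of Mtf1, the zinc sensor, were even. They were 10.5, 15.5 and 15.4 TMM-normalized CPM in NTS WT fed mice 254, 257 and 323 and 13.7, 17.4 and 16.1 in NTS WT fasted mice 265, 282 and 322. The NTS KO mice lay between 13.0 and 15.5 when fed and between 14.6 and 14.9 when fasted. The groups overlapped in either genotype. The fasting difference was 0.19 on the log2 scale in NTS WT (CI -0.14 to 0.53, adjusted p = 0.428) and 0.06 in NTS KO livers (CI -0.28 to 0.39, adjusted p = 0.840).

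Slc30a1, which exports zinc across the plasma membrane, passed no test between fasted and fed livers. It was 22.2, 25.4 and 46.2 TMM-normalized CPM in NTS WT fed mice 254, 257 and 323 (31.3 ± 13.1) and 42.3, 26.2 and 28.9 in NTS WT fasted mice 265, 282 and 322 (32.4 ± 8.62). Fed mouse 323 had the highest Mt1, Mt2 and Slc30a1 of its group, while fasted mouse 282, with the highest Mt1 and Mt2 of all, had the lowest Slc30a1 of its group. In NTS KO mice it was 44.7, 33.2 and 28.7 when fed (35.6 ± 8.26) and 23.1, 29.0 and 30.5 when fasted (27.5 ± 3.89). The mouse with the highest Mt1 and Mt2 of the fasted group, 284, again had the lowest Slc30a1. In the NTS KO fed group mouse 303 had the highest Mt1 and Mt2, and its Slc30a1 lay between those of mice 277 and 319. Fasted and fed groups overlapped in both genotypes, with log2 differences of 0.05 (CI -0.56 to 0.67, adjusted p = 0.918) in NTS WT and -0.37 (CI -0.98 to 0.24, adjusted p = 0.403) in NTS KO livers. On the log2 scale its r with Mt1 was 0.533 in the 6 fed mice (exact permutation p = 0.276, adjusted 0.742) and its rho 0.771 (exact permutation p = 0.103, adjusted 0.343), with r at 0.953 over 4 mice without the 2 farthest (exact permutation p = 0.125). In the 6 fasted mice r was -0.29 (exact permutation p = 0.594, adjusted 0.742) and rho -0.43 (exact permutation p = 0.419, adjusted 0.524). Across all 12 mice r was 0.00246 with Mt1 and 0.293 with Mt2, given as a description because the mice form 4 groups.

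Slc30a10, a manganese exporter of hepatocytes, passed the test only when the genotypes were averaged, with a small difference. In NTS KO fed mice 277, 303 and 319 it was 58.1, 57.2 and 65.8 TMM-normalized CPM (60.4 ± 4.75), and in NTS KO fasted mice 284, 290 and 295 it was 52.6, 46.5 and 44.1 (47.8 ± 4.39). The 3 fasted mice lay below the 3 fed mice, which 35.2% of all genes also did or did in reverse. The log2 difference was -0.34 (SE 0.13, CI -0.62 to -0.06), with an unadjusted p of 0.0207 and an adjusted p of 0.0895. In NTS WT livers, where values ran from 52.8 to 67.1 fed and from 48.3 to 59.6 fasted, it was -0.19 (adjusted p = 0.324). Averaged over the genotypes Slc30a10 fell by 0.27 on the log2 scale (SE 0.09, CI -0.46 to -0.07, adjusted p = 0.0385), with 1.52-fold between the highest and lowest of 12 mice. This call was lost in 11 of 20 alternatives, among them 9 of the 12 that left out a mouse (257, 323, 282, 322, 277, 303, 319, 290 or 295, adjusted p from 0.0507 to 0.101).

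Slc39a14, which carries zinc, manganese and iron into hepatocytes and is known to rise in inflammation, was the steadiest of the 6. It was 109.5, 105.8 and 123.6 TMM-normalized CPM in NTS WT fed mice 254, 257 and 323 and 97.0, 104.4 and 111.4 in NTS WT fasted mice 265, 282 and 322. In NTS KO mice it was 114.0, 110.0 and 103.9 when fed and 113.6, 104.8 and 142.5 when fasted. The value of mouse 295, 142.5, stood above those of the other 11. The log2 difference between fasted and fed livers was -0.12 in NTS WT (CI -0.39 to 0.16, adjusted p = 0.581) and 0.14 in NTS KO livers (CI -0.14 to 0.42, adjusted p = 0.505).

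The genotype labels made no detectable difference to any of the 6 genes. With edgeR 0 of 6 passed in fed and 0 of 6 in fasted livers, where 0% of all genes did in either, DESeq2 called 0 of the 6 in both, and 0 of the 6 had an unadjusted p under 0.05. Over all genes 876 (6.34%) in fed and 685 (4.96%) in fasted livers had an unadjusted p under 0.05, and DESeq2 called 12 and 4. In fed livers Mt1 was 1.16 (CI -0.98 to 3.29) and Mt2 1.35 (CI -1.32 to 4.02) higher on the log2 scale in mice labelled NTS KO, intervals that hold both no difference and several-fold differences. With a mouse left out they ran from 0.25 to 1.85 for Mt1 and from 0.21 to 2.87 for Mt2, lowest without mouse 303 and highest without mouse 323. In fasted livers the values were -0.13 for Mt1 (CI -2.22 to 1.97) and -0.63 for Mt2 (CI -3.22 to 1.95). For Mtf1, Slc30a10 and Slc39a14 the intervals were far narrower. Over both states their lowest bound was -0.42 (Mtf1, fasted) and their highest 0.49 (Slc39a14, fasted). Slc30a1 lay between, at 0.19 (CI -0.42 to 0.80) in fed and -0.23 (CI -0.85 to 0.38) in fasted livers. For the difference of the fasting differences 0 of 6 passed by edgeR or DESeq2, where 0% of all genes did by edgeR (663, or 4.8%, at an unadjusted p under 0.05, and 3 by DESeq2).

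**Figure D4:**
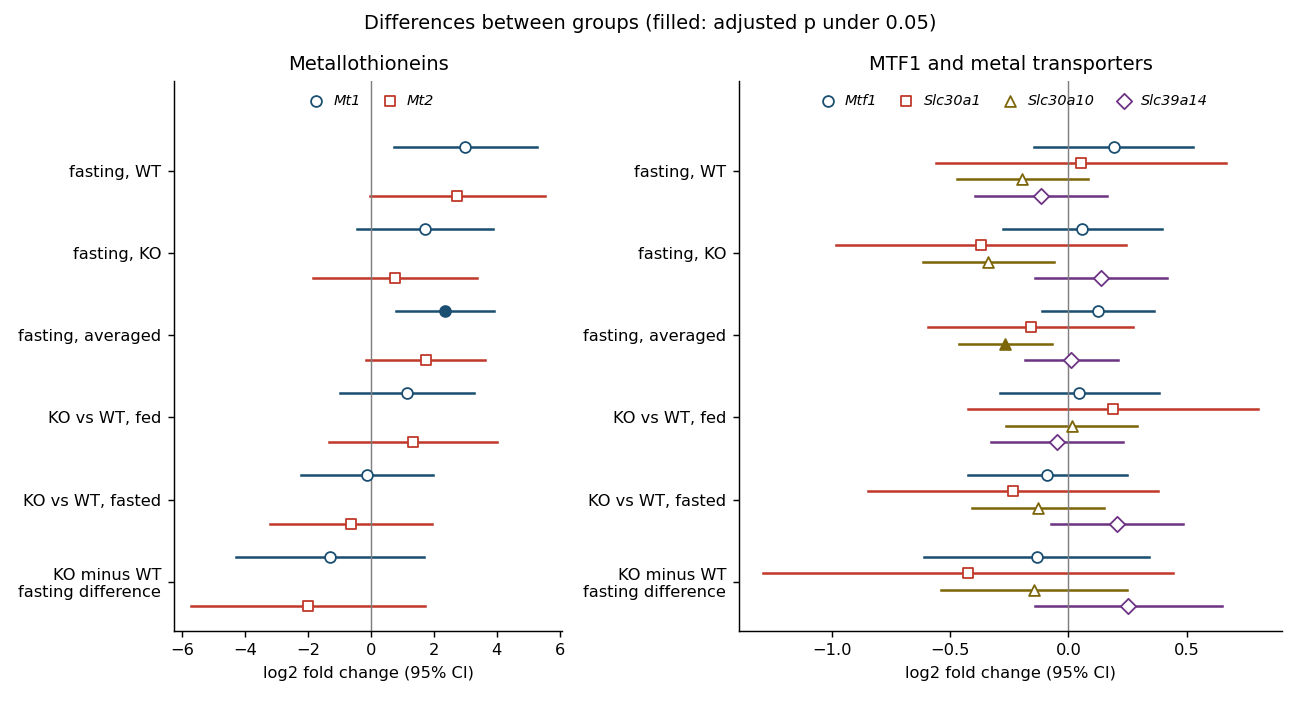
Log2 fold changes (x axis, with 95% CI as lines) of the metallothioneins (left) and of Mtf1 and the transporters (right) in 6 contrasts (y axis), with filled symbols for an adjusted p under 0.05. Only Mt1 (2.36) and Slc30a10 (-0.27) in the contrast averaged over the genotypes are filled, and the x axis of the left panel is several times as wide as that of the right panel.

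Among the other zinc transporters, 4 Slc39 importers passed the test between fasted and fed livers in 1 or both genotypes. No Slc30 exporter passed it within a genotype. Of 10 Slc30 genes 8 were tested, with 0 called in NTS WT (2 at an unadjusted p under 0.05, and 2 by DESeq2) and 0 in NTS KO livers (1 and 0) by edgeR. Their median log2 fold change was 0.23 in NTS WT and -0.01 in NTS KO livers, where the medians of all genes were -0.0032 and -0.011. Of 14 Slc39 genes 12 were tested, with 1 higher and 2 lower in NTS WT and 0 higher and 2 lower in NTS KO livers. The background was 8.91% higher and 9.19% lower of all genes in NTS WT and 7.7% and 9.14% in NTS KO livers. Beside these shares, nothing is read from counts this small. Untested were Slc30a2, Slc30a8, Slc39a2 and Slc39a12, with at most 17 counts in any mouse.

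Slc39a8, a zinc and manganese importer closely related to Slc39a14, was the 1 gene of the Slc30 and Slc39 families called in both genotypes. It was 35.8, 40.5 and 39.5 TMM-normalized CPM in NTS WT fed mice 254, 257 and 323 and 28.2, 28.6 and 30.2 in NTS WT fasted mice 265, 282 and 322. In NTS KO mice it was 38.9, 38.0 and 33.3 when fed and 28.3, 24.1 and 28.0 when fasted. All 6 fasted mice lay below all 6 fed mice, which held in either direction for 15.9% of all genes. The log2 fold change was -0.41 in NTS WT (SE 0.11, adjusted p = 0.0202), -0.45 in NTS KO (SE 0.11, adjusted p = 0.0129) and -0.43 averaged over the genotypes (SE 0.08, adjusted p = 0.000913). The call in NTS WT was lost with no filter on low counts (adjusted p = 0.0592) and without mouse 257, 265 or 282 (adjusted p 0.0652 to 0.0748) and that in NTS KO without mouse 277 or 290 (0.0595 and 0.0676), while the averaged value passed with each mouse left out in turn.

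Slc39a11, which is related to zinc import, fell in NTS WT livers from 19.8 ± 1.72 to 14.1 ± 1.90 TMM-normalized CPM (-0.49, SE 0.16, adjusted p = 0.0436). In NTS KO livers it was 21.3 ± 0.864 fed and 15.4 ± 3.35 fasted (-0.46, adjusted p = 0.0576). Slc39a13, a zinc transporter of the secretory pathway, rose in NTS WT livers from 6.49 ± 1.51 to 9.93 ± 2.01 (0.62, SE 0.20, adjusted p = 0.0480), and was 8.21 ± 1.41 and 10.1 ± 1.10 in NTS KO livers (0.30, adjusted p = 0.338). Slc39a10, a plasma membrane zinc importer that MTF1 is known to repress, fell in NTS KO livers from 3.50 ± 0.508 to 1.94 ± 0.232 (-0.84, SE 0.24, adjusted p = 0.0278), and was 3.14 ± 0.785 and 2.54 ± 0.535 in NTS WT livers (-0.30, adjusted p = 0.416). These 3 calls were near the threshold, lost in 11, 14 and 7 of 21 alternatives. The fasting differences of Slc39a8, Slc39a10, Slc39a11 and Slc39a13 did not pass the test of a difference between genotypes (adjusted p of at least 0.897). Averaged over the genotypes these 4 passed, and so did Slc39a4, the gut zinc importer (-0.45, SE 0.13, adjusted p = 0.0185), which is named after its value was seen. By this contrast 1 of the 12 tested Slc39 genes was higher and 4 were lower, where 32.8% of all genes were called in either direction. The averaged call of Slc39a13 was lost in 6 of 20 alternatives and that of Slc39a10 in 2. Those of Slc39a8 and Slc39a11 were lost in 1 each.

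**Figure D5:**
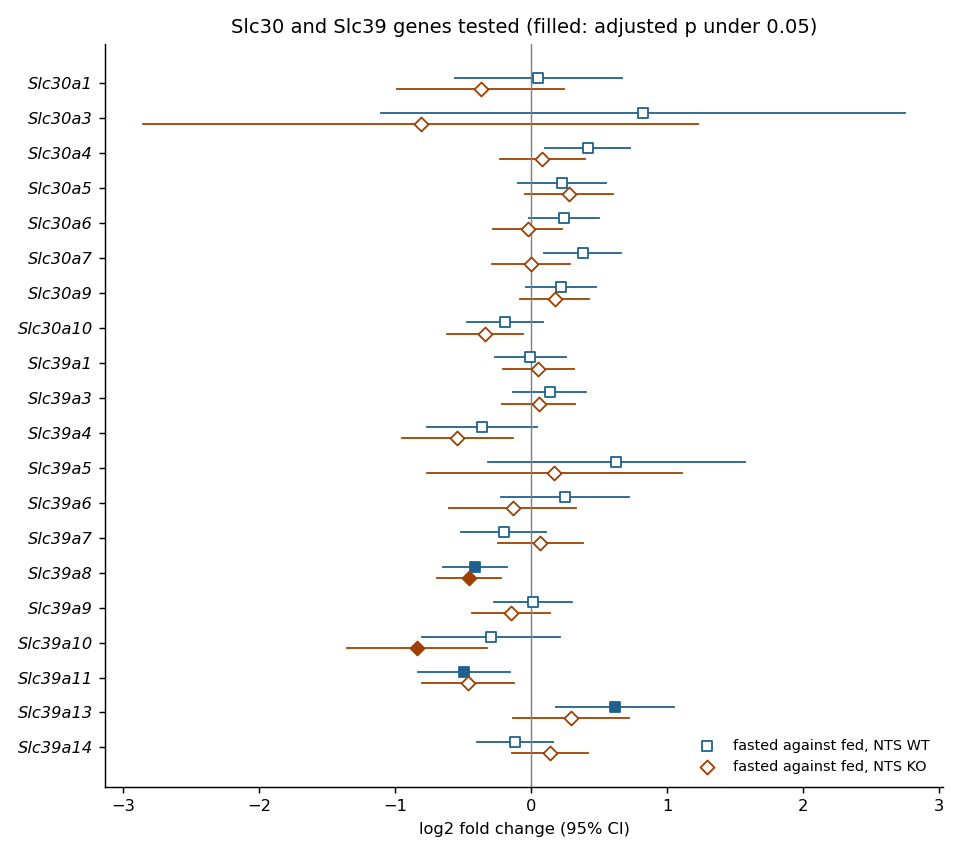
Log2 fold changes of fasted against fed livers (x axis, with 95% CI as lines) for the 20 tested Slc30 and Slc39 genes (y axis), squares for NTS WT and diamonds for NTS KO, filled for an adjusted p under 0.05. Slc39a8 is filled in both genotypes at -0.41 and -0.45, Slc39a11 and Slc39a13 in NTS WT only and Slc39a10 in NTS KO only.

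Of 8 genes linked to MTF1, Mt1, Mt2 and Slc30a1 among them, 0 were higher and 1 lower in NTS WT and 0 higher and 2 lower in NTS KO livers, with median log2 fold changes of -0.30 and -0.25. Of all genes 8.91% were higher and 9.19% lower in NTS WT and 7.7% and 9.14% in NTS KO livers, and nothing is read from counts of 1 or 2 beside these shares. The 1 gene lower in both was Ndrg1, a stress-responsive gene (-1.74, SE 0.29, adjusted p = 0.00226 and -1.77, SE 0.29, adjusted p = 0.00193), and the other in NTS KO livers was Slc39a10. Of 10 copper genes, the copper importer Slc31a1 fell in both genotypes (-0.61, SE 0.14, adjusted p = 0.00985 and -0.54, SE 0.14, adjusted p = 0.0173). The copper chaperone Atox1 was higher in NTS KO livers (0.42, SE 0.11, adjusted p = 0.023), and 8 of 10 passed in neither genotype.

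Genes known to respond to glucocorticoids mostly had higher values in fasted livers, and few passed the test. Of 8 tested, 7 had a positive log2 fold change in NTS WT and 7 in NTS KO livers, with medians of 0.67 and 0.61, and called were 0 in NTS WT (by edgeR, with 3 at an unadjusted p under 0.05 and 1 by DESeq2) and 1, the kinase Sgk1, in NTS KO livers (0.98, SE 0.28, adjusted p = 0.0321). Over all genes 18.1% and 16.8% were called and 32.5% had an unadjusted p under 0.05 in NTS WT livers, so these counts are near the background. The mean centred log2 level of these 8 genes was 0.42, 0.33 and 0.57 in NTS WT fasted mice 265, 282 and 322, 0.25, -0.0096 and 0.42 in NTS KO fasted mice 284, 290 and 295, and below that of mouse 290 in all 6 fed mice. Mouse 322, with the lowest Mt1 of the fasted mice, thus had the highest mean of the 12. Whether these genes and Mt1 are related was not tested.

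Acute phase genes, which the liver makes in inflammation, were called in both directions in NTS WT livers. Of 13 tested, 2 were higher and 2 lower in NTS WT livers and 2 higher and 0 lower in NTS KO livers. Backgrounds were 8.91% and 9.19% in NTS WT and 7.7% and 9.14% in NTS KO. In either direction, 8 in NTS WT and 5 in NTS KO livers had an unadjusted p under 0.05. Over all genes 32.5% and 31.7% had one. DESeq2 called 7 and 2 of the list, and 2881 and 2788 of all genes. In either genotype 3 of 13 had a positive log2 fold change, with medians of -0.43 and -0.25. Lcn2, an iron-sequestering protein, rose by 2.78 (SE 0.61, adjusted p = 0.015) and 2.36 (SE 0.61, adjusted p = 0.0287) on the log2 scale, and Hp, the hemoglobin-binding haptoglobin, by 0.72 (SE 0.22, adjusted p = 0.036) and 1.06 (SE 0.22, adjusted p = 0.00539). Saa2, a serum amyloid, and Orm1, an acid glycoprotein, fell in NTS WT livers by 1.14 (SE 0.25, adjusted p = 0.00763) and 0.63 (SE 0.20, adjusted p = 0.0461). The mean centred log2 level of the list was -0.15, 0.04 and 0.21 in mice 282, 284 and 265, those with the most Mt1 in that order. It was -0.01 and 0.42 in fed mice 257 and 254, those with the least. A relation of this list to Mt1 was not tested. Between the genotype labels, 0 of the 57 tested genes of all these lists passed in fed or fasted livers by edgeR or DESeq2, with 4 in either state at an unadjusted p under 0.05. Over all genes 0% passed by edgeR in either state, and DESeq2 called 12 in fed and 4 in fasted livers. An unadjusted p under 0.05 was found for 6.34% of all genes in fed and 4.96% in fasted livers. Beside these shares, nothing is read from the counts of the lists.

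Genes whose log2 levels were most like those of Mt1 over the 12 mice, by Pearson r, were Prox1os (0.954), Atpaf1 (0.946), Matr3 (0.942), Naa20 (0.936) and 9630013D21Rik (0.936). For Mt2 they were Rab11fip2 (0.967), Nsun3 (0.966) and Atpaf1 (0.959), and for Mtf1 they were Ddx31 (0.902), Alkbh5 (0.896) and Nol11 (0.885). Slc30a1 was nearest to Zfp935 (0.884), Homez (0.861) and Poc1b (0.859), Slc30a10 to Tigd2 (0.898), Pkdcc (0.893) and Gadd45a (0.892), and Slc39a14 to Epb41l4b (0.876), Noct (0.793) and Ncald (0.761). The r between Mt1 and Mt2 over the same mice was 0.939. These are descriptions over 12 mice in 4 groups, with no p, and the genes share libraries and feeding state.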

How the data were processed

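RNA of whole liver from 12 mice, 3 in each of 4 groups, had been sequenced. The authors deposited 1 table of expected counts (estimates that can be fractional, without scaling between mice) with GRCm38 positions. The submitters' processing notes name Trimmomatic, RSEM and GRCm38, with versions not given in the sources used here. Columns of other samples numbered 0. Because RSEM shares reads between similar transcripts, levels of genes with close copies depend on that sharing, and whether strand was used was not given in the sources used here.

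Expected counts were rounded. In R 4.3.3, edgeR 4.0.16 kept 13812 genes (filterByExpr), normalized with TMM and fitted 1 model of 4 group means to all 12 mice with robust quasi-likelihood tests. Adjusted p under 0.05 passed. Log2 CPM used a prior count of 2. Lengths came from the canonical GENCODE vM39 transcript, matched through Ensembl identifiers (99.17% of tested genes). On simulated counts for the contrast of fasted against fed NTS WT (13812 genes), 82 of 100 genes changed 4-fold and 60 of 100 changed 2-fold were recovered, with 6 calls among 13612 unchanged genes. The changed genes were drawn at random from all genes tested. Mt1 and Mt2 had an SD of log2 CPM between mice of 1.20 and 1.60, against a median of 0.237. This recovery is therefore not an estimate for the metallothioneins. p values measure the spread between separate mice, and depth limits low counts only.

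The 6 genes and the lists were chosen with earlier results of these data known. Genes named are the 6, metallothionein, Slc30 and Slc39 genes passing in a fasting contrast, and for each of the 6 the 3 most similar genes outside the 6 (5 for Mt1). Called genes of the other lists were named after their values were seen, as counts of 5 or fewer. The contrast averaged over the genotypes and the promoter window of 280 bases were chosen after seeing the data. Selenow, an MTF1-linked gene, was found by an older symbol. Alternatives were RLE and upper-quartile normalization, DESeq2 1.42.0, no filter, a minimum of 10 counts per mouse, a fit of the compared mice alone, leaving out mitochondrially encoded genes, a looser adjusted p of 0.1, requiring a change of 1 on the log2 scale, CPM of the whole library total, and leaving out each mouse.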

Additional observations from a re-analysis of the deposited data

How the results depend on the processing

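The count of the 6 genes called by edgeR was 0 in each fasting contrast, 0 in each genotype contrast, 0 for the difference between them and 2 averaged over the genotypes. In NTS WT livers it was 1 (Mt1) with DESeq2, 1 (Mt1) at an adjusted p under 0.1 and 0 to 1 with a mouse left out, being 1 without mouse 322. In NTS KO livers it was 1 (Slc30a10) at an adjusted p under 0.1. The averaged count was 1 (Mt1) with no filter, 1 (Mt1) when a change of 1 on the log2 scale was required, and 0 to 2 with a mouse left out, being 0 without mouse 257, 282, 277 or 319. On CPM of the whole library total, the mean of Mtf1 in NTS KO fasted livers was 14.1 and that of Slc39a14 in NTS KO fed livers 117, moves of more than 1 SD. The r of Mt1 with Mt2 in fed mice was 0.971 without the 2 farthest mice, where 4 mice cannot reach an adjusted p under 0.05. With a mouse left out, these uncalled log2 values changed sign: fasting in NTS WT, Slc30a1 -0.17 to 0.45; fasting in NTS KO, Mtf1 -0.0011 to 0.13; genotype in fed livers, Mtf1 -0.13 to 0.14, Slc30a1 -0.013 to 0.58, Slc30a10 -0.071 to 0.11, Slc39a14 -0.093 to 0.022 and Slc39a10 -0.028 to 0.32; genotype in fasted livers, Mt1 -0.81 to 0.76, Slc39a11 -0.043 to 0.27 and Slc39a13 -0.11 to 0.18; difference between genotypes, Mtf1 -0.23 to 0.043, Slc39a8 -0.11 to 0.029 and Slc39a11 -0.15 to 0.16; averaged, Slc30a1 -0.27 to 0.040 and Slc39a14 -0.057 to 0.060. Slc39a14 averaged was also -0.025 with upper-quartile normalization. In NTS WT livers DESeq2 called 4 of 8 MTF1-linked and 7 of 13 acute phase genes, where edgeR called 1 and 4. The causes were not tested. Of the log2 values of the 6 genes with a mouse left out, 396 kept direction and side of the threshold, 20 changed sign, 15 lost and 1 gained a call. No paired analysis was possible because mouse numbers are not shared between groups and litters are not given.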
